A study of Mus musculus with 2 samples.

Results

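Endothelial cells line the blood and lymph vessels. In single-cell data of mouse pancreas they were chosen by measured values, as barcodes with at least 1000 UMIs (unique molecular identifiers, each 1 captured mRNA molecule) and at most 25% of UMIs from mitochondrial genes. The 7 endothelial genes Pecam1, Cdh5, Kdr, Plvap, Esam, Egfl7 and Flt1 had to give at least 6 UMIs and at least 0.2% of the UMIs of a barcode. Barcodes with more than 1 UMI of Ptprc, the pan-leukocyte gene, were left out, as were those with 1.5% or more of their UMIs from the fibrillar collagens Col1a1, Col1a2 and Col3a1. Of 22352 barcodes in all, 15275 passed the limits on UMIs and mitochondrial share, and 83 of those were endothelial cells by this rule. Since the levels of these genes chose the cells, they are given as a description.

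The study compared pancreas of mice treated with Cae plus extracellular vesicles (CP+EVs) and pancreas of mice treated with Cae only (CP). The condition label of both libraries names acute pancreatitis induced by Cae, whereas the series title speaks of chronic pancreatitis, of vesicles induced by exercise and of STING-interferon signalling. Each group is 1 library made on the BD Rhapsody system, and strain, age and number of animals were not given in the sources used here. Totals were 38532775 UMIs over 8845 barcodes for CP+EVs and 51652425 UMIs over 13507 barcodes for CP. With 1 library a group nothing could be tested, and all intervals are exact 95% intervals that cover counting error only. Of the cell barcodes, 118 occurred in both libraries, 2 of them among the endothelial cells.

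Endothelium controls the exchange of fluid, nutrients and leukocytes between blood and tissue. Its growth and survival depend on vascular endothelial growth factor (VEGF) receptors and on the angiopoietin receptor Tie2, while VE-cadherin holds neighbouring cells together. Capillaries of the pancreas are fenestrated, with pores closed by diaphragms that the Plvap protein builds. Arteries, capillaries, veins and lymphatic vessels are lined by cells with different gene programmes.

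The CP+EVs library held 81 endothelial cells among 6849 kept barcodes, which is 1.18% (exact Clopper-Pearson interval 0.940% to 1.47%). The CP library held 2 among 8426 kept barcodes, or 0.0237% (0.00287% to 0.0857%). After every kept barcode was thinned to 1000 UMIs the rule took 79 barcodes of CP+EVs and 2 of CP. Over whole libraries the 7 genes together stood at 324 CPM (UMIs scaled to a total of 1000000) in CP+EVs and at 37.5 CPM in CP. Members held 52.0% of those UMIs in CP+EVs and 3.92% in CP. Whether the tissue itself held fewer endothelial cells was not measured. The libraries also differed in their other cells, since barcodes with at least 30% of UMIs from acinar enzyme and Reg genes made up 34.7% of kept barcodes in CP+EVs and 0.119% in CP. The part of that difference in the endothelial share was not tested.

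**Figure D1:**
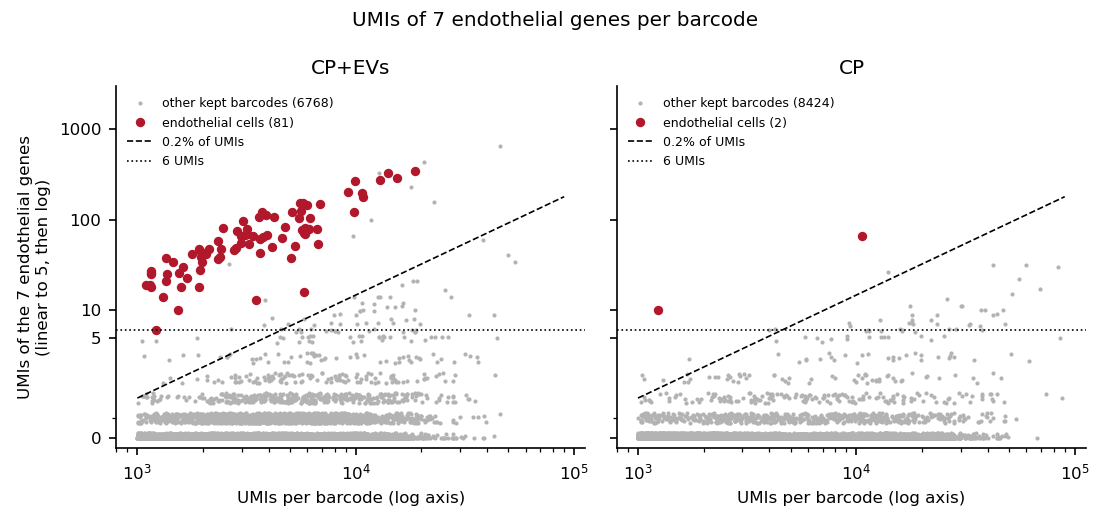
UMIs of the 7 endothelial genes (vertical axis, linear to 5 and then logarithmic) against all UMIs (logarithmic) for each kept barcode of CP+EVs (left) and CP (right). Endothelial cells are red, other kept barcodes grey with a small vertical jitter, and the lines mark 6 UMIs and 0.2% of UMIs. The 81 members of CP+EVs form a band along the diagonal, while CP has 2 members; grey points inside that band are barcodes left out for Ptprc.

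Most barcodes in CP+EVs lay far below the limits, and a few lay close to them. Of the kept barcodes there, 4733 had no UMI of the 7 genes, 1964 had 1 to 5, and 152 had at least 6, of which 92 also reached 0.2%. The 3 members with the smallest sums had 6, 10 and 13 UMIs of the 7 genes, at 0.494%, 0.649% and 0.373% of their UMIs. The 3 barcodes nearest below the limits had 14, 8 and 6 such UMIs at 0.142%, 0.138% and 0.132%. The limit on Ptprc left out 11 barcodes with 2 to 26 Ptprc UMIs, whose 7 genes summed to a median of 100 UMIs and whose total had a median of 11757 UMIs. These 11 barcodes remain among the other cells in the comparisons below. The collagen limit left out 0.

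The 81 endothelial cells of CP+EVs gave 350230 UMIs in all, with 1094 in the shallowest cell, a median of 3242 and 18748 in the deepest. They had a median of 1626 genes and 4.15% mitochondrial UMIs per cell, and the 7 genes took a median of 1.83% of UMIs (0.275% to 3.31%). Acinar enzyme and Reg genes took a median of 2.55% of UMIs, and 2.23% in T cells of the same library (at least 3 UMIs of Cd3d, Cd3e and Cd3g). In 6 of the 81 cells markers of another type were high. These were 3 cells with at least 10% acinar markers, 2 with at least 1% fibroblast markers, 1 with at least 0.5% mesothelial markers and 1 with at least 1% macrophage markers, with 1 cell in 2 of these classes. No doublet caller was run, and these cells were kept.

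Markers of vessel types outside the rule were present for capillaries and at or near 0 for several others. All levels below are CPM of the summed UMIs, and ratios are CP+EVs endothelial cells over the 6768 other kept CP+EVs barcodes on the log2 scale with 0.5 counts added. Vwf (von Willebrand factor), Selp and Sele (the endothelial selectins) were at 0 UMIs in the 81 cells, which allows up to 8.57 CPM, and Cldn5 (the tight junction protein claudin-5) had 1 UMI. Vwf had 24 UMIs and Cldn5 1 UMI in the whole CP+EVs library. The lymphatic marker Lyve1 was at 0 in the 81 cells and had 90 UMIs in the library. Mmrn1 and Ccl21a were at 0 in the whole CP+EVs library. Over the CP library Mmrn1 had 65 UMIs, Vwf 45, Cldn5 3 and Ccl21a 0, so Mmrn1 and Vwf could be counted in this series. The absence of Ccl21a and the low count of Cldn5 say little about these cells. Whether capture missed any of these genes in CP+EVs was not tested. Of the pericyte and smooth muscle markers, Acta2, Tagln, Cspg4, Kcnj8, Notch3 and Higd1b were at 0, and red cell globins were at 0. Summed over each list, fibroblast markers had 591 UMIs in the 81 cells (1687 CPM, against 12894 CPM in other cells), acinar markers 6161 (17591 CPM against 88743 CPM), macrophage markers 156, mesothelial markers 56, ductal markers 33, B cell markers 26, T cell markers 12, neutrophil markers 6 and endocrine markers 3. Platelet and Schwann cell markers had 1 UMI each, and cycling markers 36 UMIs in 23 cells. Pericyte and smooth muscle markers had 72 UMIs in 11 cells (206 CPM, against 40.6 CPM in other cells), of which Rgs5, a G protein regulator, gave 64 in 7 cells at a log2 ratio of 4.43. The part of other cell types in the results was not tested.

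Each of the 7 genes of the rule was present in most of the cells. Plvap, the diaphragm protein, had a level of 5434 CPM in endothelial cells and 29.4 CPM in other cells, and per cell it ran between 0 and 12505 CPM with a median of 4998. Kdr, the main VEGF receptor, had UMIs in 81 of 81 cells at 594 to 10486 CPM with a median of 2707. Flt1, a VEGF receptor that binds the ligand tightly with weak signalling, was detected in 80 cells, Pecam1, an adhesion protein of cell contacts, in 78, and Esam, another junction protein, in 77. Cdh5, VE-cadherin, was seen in 70 and Egfl7, a secreted vessel matrix protein, in 67. Kdr and Flt1 varied more between cells than counting alone gives, with a variance over the Poisson variance of 7.60 and 5.74. The same ratio was 1.31 for Cdh5 and 1.33 for Esam.

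A gene was counted as measured with at least 20 UMIs in the endothelial cells and at least 50 CPM in endothelial or other cells, which 3308 genes met. This favours genes that are high in endothelial cells. Another 732 genes lay at 57.1 CPM or more in other cells, the level that 20 UMIs make in the endothelial sum, and had under 20 UMIs in endothelial cells. Among the 3308 measured genes 515 (15.6%) were at least 4-fold higher in endothelial than in other cells and 91 (2.75%) at least 4-fold lower. The median log2 ratio was 0.45.

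The gene with the highest ratio, among those with at least 200 CPM and 100 UMIs, was Cyp1a1, a cytochrome P450 enzyme best known as a target of the aryl hydrocarbon receptor. It stood at 1134 CPM (1025 to 1251) in endothelial cells and 2.42 CPM in other cells, a log2 ratio of 8.87 (8.54 to 9.22). Its UMIs came from 56 of 81 cells, with a per-cell median of 714 CPM and a highest value of 6333 CPM. Members held 79.2% of the Cyp1a1 UMIs of the CP+EVs library, and the 2 CP cells held 7 of the 13 Cyp1a1 UMIs of CP. The next genes were Sox18, a vascular transcription factor, at 608 CPM in endothelial cells and 1.93 CPM in other cells, and Btnl9, a butyrophilin-like membrane protein, at 808 CPM and 2.61 CPM. Their UMIs came from 60 and 45 of the cells. Car4, a carbonic anhydrase on the surface of capillary cells, had 945 CPM in endothelial cells and 3.21 CPM in other cells. Among the 20 genes of highest ratio were also Ptprb, the phosphatase of VE-cadherin and Tie2, the endothelin receptor Ednrb, the hormone Stc1, the retinol-binding Rbp7, the sialomucin Emcn, Gpihbp1, Fabp4, Adgrl4, Cyyr1, Thrsp, Tmem252, Depp1 and Dysf, with log2 ratios of 7.51 to 8.12. Leaving the 11 Ptprc-positive barcodes out of the other cells raised the log2 ratio of Cyp1a1 to 9.42, of Ptprb to 9.32 and of Plvap to 8.76.

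The promoter of Cyp1a1 is shown since that gene led the ranking. The xenobiotic response core GCGTG, searched on both strands, is in capitals in this RefSeq window of 300 bases, chr9:57697363-57697662 (plus strand) in GRCm38.p6, printed 5′ to 3′ on the strand of the gene with the start site 250 bases in.
Cyp1a1: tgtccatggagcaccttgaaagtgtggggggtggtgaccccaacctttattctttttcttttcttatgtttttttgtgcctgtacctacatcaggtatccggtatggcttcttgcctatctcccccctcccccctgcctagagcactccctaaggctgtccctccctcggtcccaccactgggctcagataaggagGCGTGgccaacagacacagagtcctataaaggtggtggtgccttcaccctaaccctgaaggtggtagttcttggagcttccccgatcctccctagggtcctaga
GCGTG was found 1 time there, and 32.4% of the 32851 mouse promoter windows hold it.

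Of 30 further endothelial identity genes 25 were measured. All 25 were at least 1.5-fold higher in endothelial than in other cells, as were 43.1% of all measured genes, and 24 were at least 4-fold higher, with a list median log2 ratio of 6.88. Tie1, the orphan partner of Tie2, had 1402 CPM in endothelial cells and 9.79 CPM in other cells. Adgrf5, an adhesion receptor, had 2307 CPM in endothelial cells and 19.5 CPM in other cells. The ETS transcription factor Erg had 385 CPM in endothelial cells and 2.34 CPM in other cells, and the SOX factor Sox17, which marks arteries, 237 CPM and 0.517 CPM. Cd34, which fibroblasts also express, had the lowest ratio of the list at 0.96, with 1268 CPM in endothelial cells and 651 CPM in other cells. The 5 members that were not measured were Vwf, Cldn5, Nos3, Tal1 and Icam2, with 0 to 12 UMIs.

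ETS factors such as Erg bind a GGAA core, so the promoters of 3 endothelial genes with the longer string AGGAAG are shown: Egfl7 at chr2:26580833-26581132 (plus strand), Tie1 at chr4:118489800-118490099 (minus strand) and Flt1 at chr5:147725962-147726261 (minus strand), from RefSeq in GRCm38.p6, each 5′ to 3′ on the strand of its gene, with AGGAAG on either strand in capitals.
Egfl7: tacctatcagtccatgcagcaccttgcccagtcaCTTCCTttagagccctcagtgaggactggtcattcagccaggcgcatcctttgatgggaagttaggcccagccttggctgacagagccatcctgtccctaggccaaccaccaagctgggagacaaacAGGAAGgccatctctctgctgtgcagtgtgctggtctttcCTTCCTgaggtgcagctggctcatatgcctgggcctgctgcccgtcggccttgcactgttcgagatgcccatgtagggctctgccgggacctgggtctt
Tie1: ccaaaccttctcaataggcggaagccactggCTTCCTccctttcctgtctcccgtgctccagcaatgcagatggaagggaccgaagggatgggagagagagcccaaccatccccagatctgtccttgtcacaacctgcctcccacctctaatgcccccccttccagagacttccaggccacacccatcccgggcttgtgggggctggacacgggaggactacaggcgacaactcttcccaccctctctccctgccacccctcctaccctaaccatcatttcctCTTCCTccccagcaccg
Flt1: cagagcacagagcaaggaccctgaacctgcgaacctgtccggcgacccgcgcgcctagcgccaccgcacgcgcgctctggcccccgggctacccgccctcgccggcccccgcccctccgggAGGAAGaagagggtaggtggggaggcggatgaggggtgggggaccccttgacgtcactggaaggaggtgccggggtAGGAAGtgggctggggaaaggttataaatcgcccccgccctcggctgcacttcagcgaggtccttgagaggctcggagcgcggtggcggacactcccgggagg
Egfl7 had 3 promoter windows, of which the one with the most matches is shown. Of the 24 genes made up by the rule and the 20 leading genes, 15 had a RefSeq promoter entry, with 18 windows in all. AGGAAG was in 10 of the 18 windows (55.6%) and in 35.4% of all promoter windows. A match is a description of the letters and does not show that a factor binds. None of the strings searched contains another.

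VEGF and angiopoietin genes had 12 of 21 members measured. All 12 were at least 1.5-fold higher in endothelial cells, with a median log2 ratio of 6.68. Kdr and Flt1 are genes of the rule, and without them 10 of 10 measured genes were higher, with a median of 6.43. The ligands Vegfa and Vegfd were above 57.1 CPM in other cells with 13 and 2 UMIs in endothelial cells. Receptors and co-receptors made up most of the 12. The co-receptor Nrp1 had 1950 CPM in endothelial cells and 85.9 CPM in other cells, and Flt4, a receptor of VEGF-C, 180 CPM and 1.41 CPM. Tek, which encodes Tie2, had 200 CPM in endothelial cells and 35.6 CPM in other cells, with 84.0 CPM in barcodes of at least 1.5% collagen UMIs, called the fibroblast gate here. The angiopoietins Angpt1 and Angpt4 were at 0 UMIs and Angpt2 had 6. Of the Notch and ephrin list 10 of 19 members were measured and all 10 were at least 1.5-fold higher, among them the receptor Notch4 at 297 CPM in endothelial cells with a log2 ratio of 6.22 over other cells, the ligand Dll4 at 117 CPM and 1.60 CPM, and Ephb4, a venous ephrin receptor, at 263 CPM and 9.87 CPM. Of that list, Notch2 was above 57.1 CPM in other cells and had 3 UMIs in endothelial cells.

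Transport genes of capillaries were high in most of the cells. Fabp4, a fatty acid binding protein, had 5619 CPM in endothelial cells and 30.2 CPM in other cells and was detected in 75 of 81 cells, at 0 to 26251 CPM per cell with a median of 4522. The fatty acid transporter Cd36 had 2356 CPM in endothelial cells and 80.4 CPM in other cells, and was seen in 63 cells with a per-cell median of 1649 CPM. Gpihbp1, which carries lipoprotein lipase to the capillary surface, had 805 CPM in endothelial cells and 4.40 CPM in other cells. Lpl, the lipase itself, was at 60.0 CPM in endothelial cells and 992 CPM in other cells, with 2316 CPM in the fibroblast gate, with a log2 ratio of -4.01 over other cells. Of 21 lipid and solute transport genes 13 were measured, 12 at least 1.5-fold higher and Lpl at least 1.5-fold lower, a direction that 9.43% of all measured genes shared. All 9 measured genes of caveolae and fenestrae were higher, with a median of 4.08, or 3.64 over the 8 genes other than Plvap, a gene of the rule. An example is Cav1, the caveolar coat protein, at 1450 CPM in endothelial cells and 85.8 CPM in other cells. Mfsd2a, a lipid transporter of the blood-brain barrier, was at 0 UMIs.

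Endothelial transcription factors had 18 of 24 members measured, 14 of them at least 1.5-fold higher in endothelial cells and 0 lower, with a median of 3.82. Gata2, which maintains endothelial identity, had 157 CPM in endothelial cells and 0.924 CPM in other cells. Meox1, a homeobox factor, had 203 CPM in endothelial cells and 3.72 CPM in other cells. Foxo1, a factor of growth arrest, was at 123 CPM in endothelial cells and 129 CPM in other cells. Nr2f2, which specifies veins, was at 97.1 CPM in endothelial cells and 72.0 CPM in other cells. Ets1 and Mef2c, which leukocytes also express, had log2 ratios of 0.68 and 0.53, and Meox2 and Lyl1 were at 0 UMIs.

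Junction genes had 14 of 21 members measured, and all 14 were at least 1.5-fold higher with a median of 3.38. Pecam1, Cdh5 and Esam, genes of the rule, are among them, and the other 11 had a median of 3.20. Basement membrane genes were divided. Col4a1 and Col4a2, the main type IV collagen chains, had 3543 and 2421 CPM in endothelial cells and 511 and 304 CPM in other cells. The laminin chain Lamc1 and the linker Nid1 lay lower, at 331 and 762 CPM in endothelial cells and 582 and 1561 CPM in other cells. Of 17 measured genes in that list 12 were at least 1.5-fold higher and 2 lower, with a median of 1.96. Set against the fibroblast gate, 6 of the 17 were higher and 5 lower, a gate over which 42.3% of all measured genes were at least 1.5-fold higher in endothelial cells and 10.9% lower. Sparc, a collagen-binding matrix protein, had a level of 7381 CPM in endothelial cells and 10954 CPM in the fibroblast gate.

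Signals to other cells and regulators of flow and clotting followed the same division by member. Of the angiocrine factors 10 of 23 genes in the table were measured and 7 were higher, such as Kitl, the stem cell factor, at 757 CPM in endothelial cells and 42.0 CPM in other cells, and Pdgfb, which recruits pericytes, at 157 CPM and 4.57 CPM. Cxcl12, a chemokine, had 700 CPM in endothelial cells and 68.5 CPM in other cells, while Cxcl1, a neutrophil chemokine, had 91.4 CPM and 396 CPM. Of the other chemokine and scavenger genes, 16 were not measured, 7 of them above 57.1 CPM in other cells, among them Cxcl2, Cxcl9, Ccl2, Ccl5 and Il6. Leukocyte adhesion genes had 4 of 15 members measured, and all 4 were higher, led by the sialomucin Podxl at 1002 CPM in endothelial cells and 7.86 CPM in other cells. Vcam1 and Icam1, the adhesion molecules that inflamed endothelium displays to leukocytes, had 3 and 7 UMIs in all 81 cells.

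Of the vasoactive genes 11 of 19 were measured, with 9 higher, 0 lower and a median of 1.66. Ramp2 and Calcrl, which together form the adrenomedullin receptor, had 954 and 371 CPM in endothelial cells and 78.4 and 32.6 CPM in other cells. Nos3, the endothelial nitric oxide synthase, had 5 UMIs in 5 cells. Klf2, a factor induced by laminar flow, stood at 1273 CPM in endothelial cells and 404 CPM in other cells, and its target Thbd, the thrombin receptor thrombomodulin, at 874 CPM and 174 CPM. Of 9 measured haemostasis genes 6 were higher and Plat, the tissue plasminogen activator, was lower at 103 CPM in endothelial cells and 221 CPM in other cells. BMP and TGF-beta genes had 11 of 19 members measured, 9 of them higher, with a median of 2.41, and Id1, a direct BMP target, had 503 CPM in endothelial cells and 9.08 CPM in other cells. Of 15 mesenchymal transition genes 5 were measured, with a median of 0.84. Snai2 and Snai1, repressors of E-cadherin, were higher there, with 88.5 and 85.7 CPM in endothelial cells and 1.58 and 6.96 CPM in other cells, whereas Vim and Fn1 were lower, and Acta2, Tagln and Cdh2 were at 0.

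**Figure D2:**
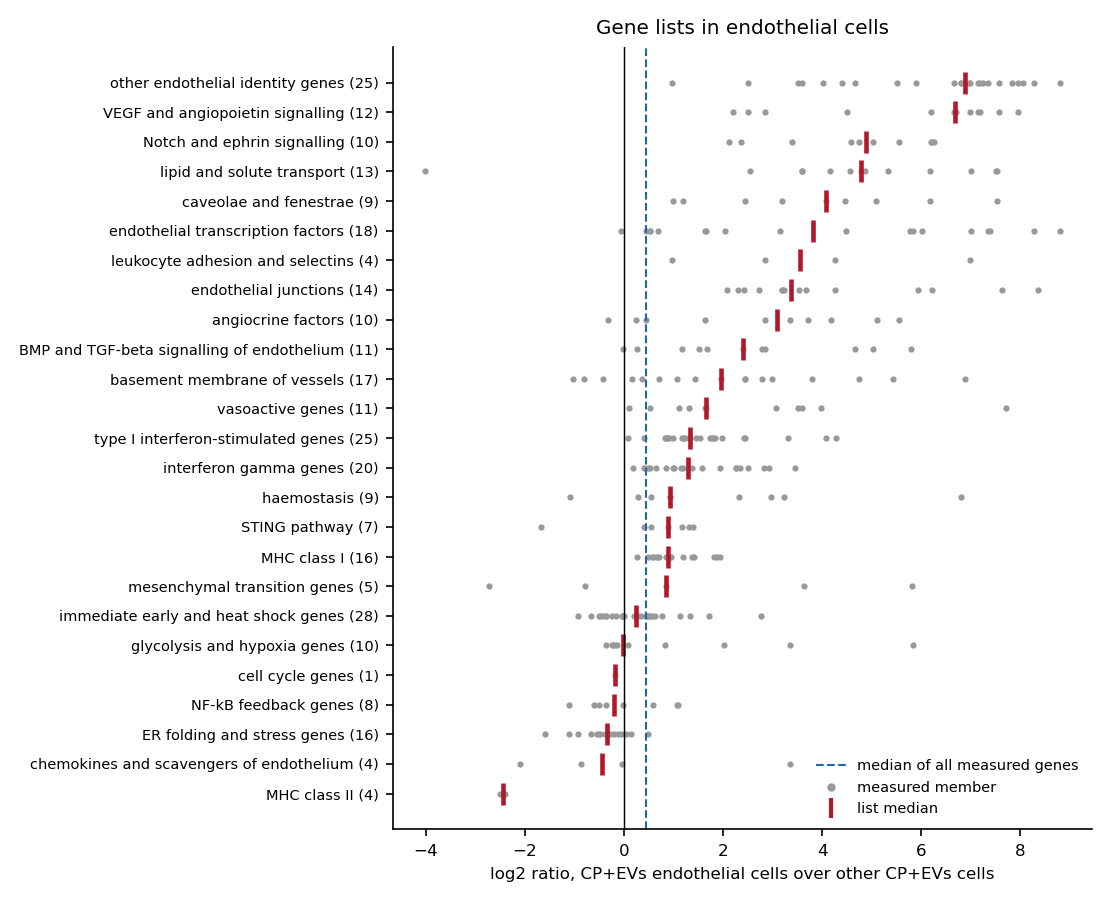
Log2 ratio of CP+EVs endothelial cells over other CP+EVs cells for each measured member (grey points) of 25 gene lists, with the list median (red bar) and the number of measured members in brackets. Lists of endothelial identity and VEGF signalling have medians of 6.88 and 6.68, the interferon lists 1.33 and 1.28, and MHC class II -2.43; the dashed line is the median of all measured genes at 0.45.

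Interferon genes are of interest because the series title names STING-interferon signalling. STING is an adaptor that, once cGAS senses cytosolic DNA, drives type I interferon through the kinase Tbk1 and the factor Irf3. Rsad2 (viperin, an antiviral enzyme) had 286 CPM (232 to 347) in endothelial cells and 14.8 CPM in other cells, a log2 ratio of 4.28. It was at 16.1 CPM in the fibroblast gate, 12.3 CPM in barcodes with at least 2 Ptprc UMIs (the immune gate) and 6.16 CPM in the acinar gate of at least 30% acinar and Reg UMIs. Its UMIs were spread over 41 of 81 cells with a per-cell median of 92.2 CPM and a highest value of 2613 CPM. Ifi44, another antiviral gene, had 317 CPM in endothelial cells and 18.8, 15.8 and 5.93 CPM in the fibroblast, immune and acinar gates. Iigp1, an interferon-inducible GTPase, stood at 1545 CPM in endothelial cells, with 423, 90.1 and 45.8 CPM in those gates, and had UMIs in 68 cells. With each cell thinned to 1000 UMIs, 16.0% of endothelial cells, 0.198% of T cells and 1.01% of fibroblast gate cells had a UMI of Rsad2, against 50.6% of the unthinned endothelial cells.

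The difference was less even over the whole lists. Of 43 type I interferon-stimulated genes 41 were in the table and 25 measured. Of these, 23 were at least 1.5-fold higher over other cells and 0 lower, with a median log2 ratio of 1.33. Of all measured genes 43.1% were higher and 9.43% lower over other cells. Ifi27l2a was above 57.1 CPM in other cells with under 20 UMIs in endothelial cells, so the count of 0 leaves it out. Over the fibroblast gate 17 of the 25 were at least 1.5-fold higher, with a median of 1.12. Of all measured genes 42.3% were higher and 10.9% lower over that gate, with a median of 0.43. Over the immune gate 22 of the 25 were higher, with a median of 1.48. In that comparison 38.9% of all measured genes were higher in endothelial cells and 16.6% lower. Ifit1 and Ifit3, RNA-binding antiviral proteins, had 134 and 140 CPM in endothelial cells, 92.7 and 58.7 CPM in the fibroblast gate and 20.4 and 22.4 CPM in the immune gate. Isg15, a ubiquitin-like modifier, had 8 UMIs in 8 cells, and Cxcl10 had 3. Of the interferon gamma genes 20 of 28 were measured. Of these, 16 were at least 1.5-fold higher over other cells, as were 43.1% of all measured genes, with a list median of 1.28. Irf8, Cxcl9 and Ciita of that list were above 57.1 CPM in other cells and were not measured. The guanylate-binding Gbp7 had 688 CPM in endothelial cells and 136 CPM in other cells, and Gbp4 had 234 CPM and 33.1 CPM. Ifit, Gbp, Irg and MHC genes have close relatives, and how reads shared between relatives were counted is not known, so values of single members are uncertain.

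The STING pathway itself was covered in part, with few UMIs of Sting1, Cgas and Irf3. Of the STING list 17 of 19 genes were in the table and 7 measured. Over other cells 43.1% of all measured genes were at least 1.5-fold higher and 9.43% lower. Of the 7 measured STING genes 4 were higher and 1 was lower, too few to set the list apart from those shares. The lower one was Ifi204, a DNA sensor gene, at 77.1 CPM in endothelial cells and 249 CPM in other cells, and the higher ones included Irf9, part of the interferon response complex, at 271 CPM and 121 CPM. Sting1 had 8 UMIs in 8 of 81 cells, 22.8 CPM (9.86 to 45.0), against 36.1 CPM in other cells and 58.5 CPM in the immune gate. Cgas had 7 UMIs in 5 cells and Irf3 17 UMIs in 14 cells. Irf7, the factor that amplifies interferon, had 51.4 CPM (30.5 to 81.2) in endothelial cells and 19.3 CPM in other cells, and Tbk1 had 94.2 CPM and 38.2 CPM. Ifnb1 was at 0 UMIs. After thinning, 3.70% of endothelial cells (0.770% to 10.4%) and 4.94% of T cells had a Sting1 UMI, so a difference was not detectable at this depth.

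**Figure D3:**
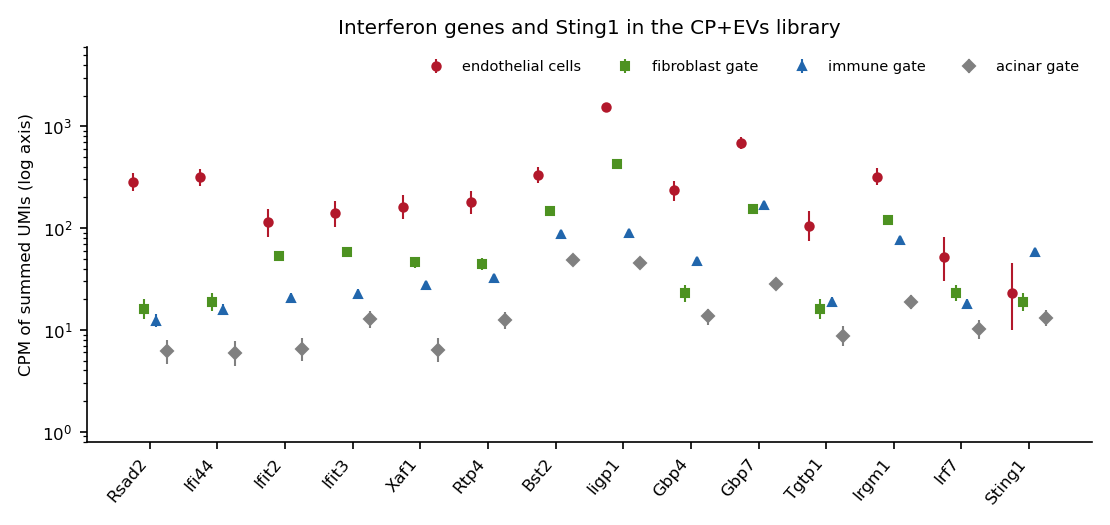
Level in CPM (logarithmic axis) of 13 interferon-stimulated genes and of Sting1 in the endothelial cells, the fibroblast gate, the immune gate and the acinar gate of CP+EVs, with exact Poisson 95% intervals as bars. Rsad2 and Ifi44 stand at 286 and 317 CPM in endothelial cells and under 20 CPM in each of the other gates, while the interval of Sting1 in endothelial cells spans 9.86 to 45.0 CPM.

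The promoters of 3 interferon-stimulated genes are shown with the interferon-stimulated response core (TTTC, any 2 bases, TTTC), searched on both strands, in capitals: Rsad2 at chr12:26456403-26456702 (minus strand), Ifit3 at chr19:34583279-34583578 (plus strand) and Bst2, which tethers viruses to the cell surface, at chr8:71537423-71537722 (minus strand), from RefSeq in GRCm38.p6, each 5′ to 3′ on the strand of its gene.
Rsad2: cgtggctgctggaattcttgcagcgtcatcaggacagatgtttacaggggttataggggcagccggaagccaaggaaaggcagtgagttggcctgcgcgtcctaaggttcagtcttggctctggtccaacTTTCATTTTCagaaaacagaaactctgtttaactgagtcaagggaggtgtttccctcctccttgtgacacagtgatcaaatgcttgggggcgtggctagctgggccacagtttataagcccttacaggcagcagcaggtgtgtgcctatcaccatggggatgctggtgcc
Ifit3: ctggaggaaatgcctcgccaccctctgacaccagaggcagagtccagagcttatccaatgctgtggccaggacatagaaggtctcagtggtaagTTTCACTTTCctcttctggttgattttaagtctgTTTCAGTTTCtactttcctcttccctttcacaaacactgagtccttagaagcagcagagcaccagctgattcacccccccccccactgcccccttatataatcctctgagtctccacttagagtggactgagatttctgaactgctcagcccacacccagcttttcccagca
Bst2: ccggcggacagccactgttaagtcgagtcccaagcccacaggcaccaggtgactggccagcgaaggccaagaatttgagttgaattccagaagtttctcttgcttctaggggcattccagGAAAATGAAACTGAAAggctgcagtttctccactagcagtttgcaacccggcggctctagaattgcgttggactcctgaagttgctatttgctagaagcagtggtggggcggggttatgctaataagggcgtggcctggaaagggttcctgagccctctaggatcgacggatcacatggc
Rsad2 holds 1 match, and Ifit3 and Bst2 hold 2 each, which in Bst2 overlap in 1 run of capitals. Of the 43 genes of the type I list 30 had RefSeq entries, with 35 windows, and the string was in 19 of them (54.3%), against 3.44% of all promoter windows.

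Antigen presentation divided by class. Of 16 measured MHC class I genes 12 were at least 1.5-fold higher and 0 lower over other cells, against 43.1% and 9.43% of all measured genes. B2m, the shared light chain, stood at 6784 CPM in endothelial cells and 2560 CPM in other cells. Over the immune gate 7 of the 16 were higher, which is near the share of 38.9% over all measured genes. The 4 measured class II genes were at least 1.5-fold lower, such as the invariant chain Cd74 at 805 CPM in endothelial cells and 4587 CPM in other cells. Cd74 stood at 434 CPM in the fibroblast gate and 2851 CPM in the T cells. After thinning 49.4% of endothelial cells and 45.3% of T cells had a Cd74 UMI (79.0% of endothelial cells unthinned), and 38.0% of fibroblast gate cells. All 4 class II genes were at least 1.5-fold higher than in the fibroblast gate, as were 42.3% of all measured genes, with a median of 0.76. As the share in endothelial cells was near that in T cells, expression of class II by endothelial cells and UMIs of free RNA cannot be told apart here.

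Stress and cycling lists stood near or below the median of all measured genes. Of all measured genes 43.1% were at least 1.5-fold higher and 9.43% lower over other cells. Of 28 measured immediate early and heat shock genes, which dissociation can induce, 6 were at least 1.5-fold higher and 2 lower, with a median of 0.25. Egr1 had 4834 CPM in endothelial cells, 3556 CPM in other cells and 8245 CPM in the fibroblast gate. Of 16 measured genes of protein folding in the endoplasmic reticulum 0 were higher and 4 lower. Of 10 measured glycolysis and hypoxia genes 4 were higher, near the share over all measured genes. They were led by Epas1, which encodes the hypoxia factor HIF-2alpha that endothelium expresses, at 2250 CPM in endothelial cells and 39.2 CPM in other cells. Pfkp, Tpi1, Vegfa and Adm of that list were above 57.1 CPM in other cells and were not measured. Of 8 measured NF-kB feedback genes 3 were higher and 2 lower. Only Pcna was measured of 24 cell cycle genes, and Mki67 and Top2a had 12 and 18 UMIs in 10 and 11 cells.

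Among the 81 cells, capillary markers were detected in each cell, and markers of the other vessel types in 40 to 65 cells. Each of the 8 capillary markers was measured. Kdr, a gene of the rule, alone had UMIs in 81 of 81 cells, so the list as a whole reached each cell through it. With Kdr included the list took a median of 1.60% of UMIs. Rgcc, a cell cycle regulator, was in 79 cells and Cd300lg, a capillary surface receptor, in 74. Arterial markers summed to 599 UMIs in 64 cells and tip cell markers to 426 UMIs in 60 cells. Venous markers summed to 233 UMIs in 65 cells, with 3 of 12 at 0, and lymphatic markers to 76 UMIs in 40 cells, of which Flt4 gave 63.

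Esm1, a secreted proteoglycan of VEGF-stimulated and tip cells, was detected in 24 of the 81 cells, and 4 of them with 64, 38, 36 and 32 UMIs held 66.7% of its UMIs. Its variance over the Poisson variance was 16.2, and that of Fabp4 was 15.4. Igfbp5, Jchain and C3 had higher ratios than Esm1, and Dcn and Serping1 lay between Esm1 and Fabp4. Over 81 cells thinned to 1000 UMIs, Pearson's r of log values was -0.48 between Fabp4 and Esm1 and -0.33 between Cd36 and Esm1, whereas it was 0.41 between Gpihbp1 and Fabp4. These are descriptions over cells of 1 library that share its depth and free RNA. The split by Esm1 was also made after its values were seen. The 24 cells with an Esm1 UMI had 3940 CPM of Fabp4, and the other 57 cells had 6722 CPM. Aqp1 was also lower, at 396 CPM in cells with Esm1 and 922 CPM in the others. Other capillary markers were not lower, with Car4 at 1160 and 804 CPM, Rgcc at 2975 and 2464 CPM, and Cd300lg at 1606 and 1358 CPM. Gpihbp1 was at 821 and 795 CPM. Summed Cd36 was 2600 CPM in cells with Esm1 and 2195 CPM in the others, despite its negative r. It had UMIs in 15 of the 24 cells and 48 of the 57. Dll4 was at 223 CPM in cells with Esm1 and 47.3 CPM in the others, Kdr at 4689 and 2379 CPM, and Nrp1 at 2809 and 1386 CPM. The arterial genes Sox17 and Sema3g were also higher, at 367 and 288 CPM in cells with Esm1 and 151 and 114 CPM in the others. Other arterial markers differed less, with Efnb2 at 346 and 255 CPM and Gja4 at 72.0 and 61.5 CPM. Clu lay lower, at 209 CPM in cells with Esm1 and 298 CPM in the others. The intervals of these 3 log2 ratios span 0. Of the tip cell markers, Mcam was at 238 and 218 CPM, Cxcr4 had 8 and 2 UMIs, and Nid2 had 3 and 7 UMIs. Apln, the ligand apelin and also a tip cell marker, had 2 UMIs in 1 of the 24 cells with Esm1 and 21 UMIs in 3 of the 57 others. Its levels of 14.4 CPM in cells with Esm1 and 99.3 CPM in the others thus rest on few cells. Aplnr, the apelin receptor, was lower in cells with Esm1, at 14.4 CPM and 175 CPM in the others, with UMIs in 1 of the 24 cells and in 20 of the 57. The median depth was 3893 UMIs in the cells with Esm1 and 2845 in the others, and its part in the split was not tested.

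A few cells carried several arterial genes together. In 7 cells at least 5 of 8 arterial genes were detected (Gja4, Gja5, Sox17, Hey1, Sema3g, Efnb2, Dll4 and Unc5b), a set chosen after its values were seen. As these genes picked the cells, their levels are a description. The 7 cells held 20 of 23 UMIs of Gja4, the arterial connexin 37, and 41 of 83 UMIs of Sox17. Arterial markers outside the 8 differed in direction. Fbln5, Alpl and Eln were higher, at 354, 108 and 246 CPM in the 7 cells and 70.1, 17.5 and 112 CPM in the others. Clu, Stmn2 and Jag1 were lower, at 215, 30.7 and 15.4 CPM and 274, 56.1 and 24.5 CPM, with intervals of the log2 ratio that span 0. Plvap was at 3874 CPM in the 7 cells and 5789 CPM in the other 74 cells, and Btnl9 at 1860 and 568 CPM. Capillary markers were divided. Cd36, Cd300lg and Kdr were higher in the 7 cells, at 3244, 1891 and 4920 CPM, against 2153, 1357 and 2924 CPM. Fabp4, Car4, Aqp1 and Rgcc were lower, at 3890, 400, 338 and 2137 CPM, against 6014, 1069, 799 and 2788 CPM. Gpihbp1 was at 861 and 792 CPM. Of the 7 cells 5 also had Esm1, with 111 of its 255 UMIs. Their median depth was 6697 UMIs, and that of the other 74 cells 3064, and its part in the detection was not tested. Sub-clustering gave no stable classes, with 2 clusters of 55 and 26 cells that became 1 or 5 at other resolutions and 3 with another seed, so the clusters were left unnamed. Cluster 2 was led by Mal, Rgs5, Ehd3, Ntn4, Sema3g and Sox17, genes that also defined it. Cluster 1 was led by Igfbp5, and 1 cell held 209 of its 224 UMIs together with 50 of the 56 mesothelial marker UMIs.

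**Figure D4:**
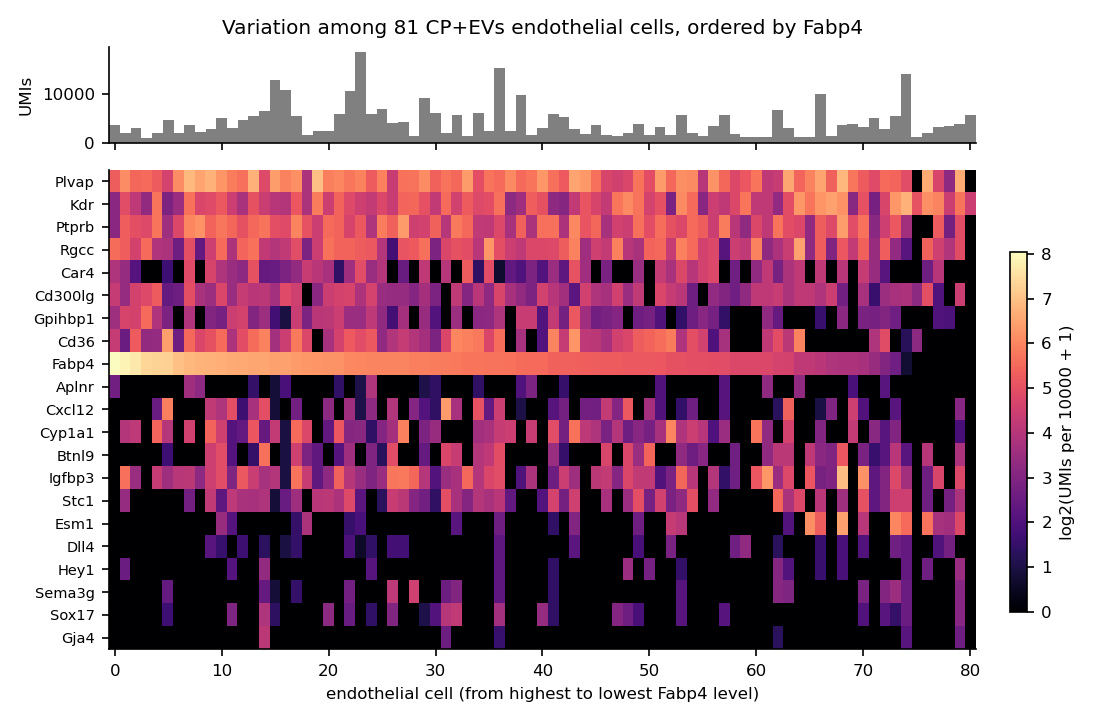
Level of 21 genes (log2 of UMIs per 10000 plus 1, colour) in each of the 81 CP+EVs endothelial cells, ordered from the highest to the lowest Fabp4 level, with the UMIs of each cell above. Plvap and Kdr are filled in nearly all columns, while Esm1 is filled in 24 cells that lie mainly to the right; rows are to be read along, not against each other.

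The 2 endothelial cells of CP were unlike each other. Cell 1, with 10589 UMIs, had 19 UMIs of Pecam1, 14 of Plvap, 12 of Kdr and 0 of Flt1. It also had 57 UMIs of Mmrn1, 16 of Prox1, the master regulator of lymphatic identity, 7 of Flt4, 25 of Ackr4 and 9 of Vwf. The lymphatic markers Lyve1, Pdpn, Ccl21a and Nts were at 0 in it, though Pdpn had 10625 UMIs over the CP library. Mmrn1 had 0 UMIs in the whole CP+EVs library, and this cell held 57 of the 65 in CP. Cell 2, with 1237 UMIs, had 4 UMIs each of Kdr and Flt1, 2 of Esam and 5 of Btnl9, while Pecam1, Cdh5, Plvap and Egfl7 were at 0. It had 20 UMIs of fibroblast markers, against 6 of endothelial markers. Neither cell had a UMI of Rsad2 or Ifi44, where 0 counts allow up to 254 CPM, so the interferon genes of endothelial cells could not be compared between the libraries. Over whole libraries Rsad2 stood at 17.2 CPM in CP+EVs and 40.7 CPM in CP, and Ifi44 at 21.3 CPM in CP+EVs and 21.1 CPM in CP. Members held 15.1% of the Rsad2 UMIs of CP+EVs.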

How the data were processed

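Gene expression was measured in single cells from mouse pancreas, 1 library per treatment label. The authors deposited raw counts of UMIs for each gene in each barcode, as whole numbers. Names recorded in the submitters' processing notes are CASAVA 1.8, UMI-tools, Seurat and mm10, with no role stated; aligner, annotation and cell calling were not given in the sources used here. Of 31205 symbols, 43 had several entries, and the one with the highest total was taken. Members were found by the stated rule, UMIs were summed over cells, and CPM, log2 ratios (0.5 counts added) and exact Poisson and Clopper-Pearson 95% intervals were computed with Python 3.11.15, numpy 2.4.6 and scipy 1.17.1, after the ratio and interval code was tested on simulated data. Sub-clusters were made with scanpy 1.11.5. A planned comparison of CP+EVs with CP endothelial cells needed 20 cells in each library and was void. Named genes were the 7 genes of the rule, the 20 highest ratios over other cells, list members, leading sub-cluster genes, and Sting1, Cgas, Tbk1, Irf3 and Irf7. The members, the 25 gene lists and 20 marker lists were chosen with earlier results of these data known, and the fibroblast, immune, acinar and T cell gates after the data were seen. Alternatives covered the limits of the rule, scaling, filters and clustering.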

Additional observations from a re-analysis of the deposited data

How the results depend on the processing

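The endothelial share stayed within its main interval under each alternative limit of the rule, between 1.02% and 1.20% in CP+EVs and between 0.0119% and 0.0249% in CP. Thinning, and the 2 alternatives named next, were chosen after seeing the data. The count of genes at least 4-fold higher ran between 409 with median-of-ratios scaling and 539 with the mean of per-cell CPM, against 515. It was 520 without the 6 cells that carry another class and 519 with the 11 Ptprc-positive barcodes left out of the other cells. Of 25 lists 14 had a median of at least 1, and 12 to 17 under the alternatives. Of 375 list medians and 930 ratios of named genes recomputed, 0 reversed; 42 and 198 moved beyond counting error, 23 and 50 of these under median-of-ratios scaling, which takes the median of all measured genes, 0.45, off each ratio. That median was 0.26 without acinar, Reg and mitochondrial genes and 0.56 with the mean of per-cell CPM. The number of sub-clusters moved from 2 to 1 at resolution 0.3, to 5 at resolution 1.0 and to 3 with random seed 1, and the cause was not tested. Leaving out replicates was not run with 1 library a group. No paired analysis was possible because the labels give no replicate numbers and each group is 1 library. Depth limits what can be said of genes under 8.57 CPM in the 81 cells and of any gene in the 2 CP cells.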

Other observations

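The genes of this section were chosen after their values were seen. Beside Cyp1a1, genes tied to the aryl hydrocarbon receptor differed in direction. The receptor gene Ahr had 114 CPM in endothelial cells and 23.5 CPM in other cells, with UMIs in 24 of 81 cells. Tiparp, a feedback target of the receptor, had 62.8 CPM in endothelial cells and 179 CPM in other cells, a log2 ratio of -1.48 (-2.19 to -0.91). Cyp1b1, a related enzyme, had 4 UMIs in the 81 cells, 11.4 CPM, against 135 CPM in other cells, and Ahrr, the receptor's repressor, had 0 UMIs. Nqo1, another target, was higher, with 8 UMIs in 4 cells, 22.8 CPM, against 1.77 CPM in other cells, a log2 ratio of 3.77 (2.42 to 4.76).

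A further 8 genes with higher levels in endothelial cells are given singly and stand for no pathway. Sgk1, a serum and glucocorticoid regulated kinase, had 1271 CPM in endothelial cells and 128 CPM in other cells. The redox regulator Txnip had 1096 CPM in endothelial cells and 213 CPM in other cells, and Cdkn1a, the cell cycle inhibitor p21, 1279 CPM and 271 CPM. Fkbp5 had 434 CPM in endothelial cells and 142 CPM in other cells, with a log2 ratio of 1.61 (1.37 to 1.84), and Tsc22d3 308 CPM and 156 CPM. The surface proteins Ly6c1, Cd200 and Tm4sf1 had 4868, 1285 and 1119 CPM in endothelial cells and 461, 41.0 and 34.2 CPM in other cells.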
